A study of Mus musculus and Rattus norvegicus with 30 samples.

Results

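Glucose transporters and hexokinases are described here in heart cells and hearts given agonists of the estrogen-related receptors (ERR). The 8 genes were chosen by name: the hexose transporters Slc2a1, Slc2a3, Slc2a4, Slc2a8 and Slc2a12, the hexokinases Hk1 and Hk2, and Txnip, a brake on glucose uptake. All 8 were found once in the rat table of 32545 genes and once in the mouse tables of 54307 genes.

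A heart muscle cell takes up glucose through transporters of the GLUT family in its surface membrane. GLUT1, the product of Slc2a1, sits there at rest, whereas GLUT4, the product of Slc2a4, is held in vesicles until insulin or contraction brings it to the surface. Hexokinases then add a phosphate to glucose, which keeps it in the cell. The fetal and newborn heart relies more on GLUT1 and hexokinase 1, and the adult heart more on GLUT4 and hexokinase 2. Txnip, an arrestin-like protein, draws GLUT1 and GLUT4 out of the membrane and binds thioredoxin, and its own gene is switched on by glucose through the MondoA and ChREBP factors.

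The rat libraries came from neonatal rat ventricular myocytes (NRVM), which were taken from 3-day-old pups, left on a dish so that fibroblasts attached, and cultured with bromodeoxyuridine. The 4 rat groups had 3 libraries each: cells with siRNA against ERRalpha and ERRgamma on the agonist 915, the same knockdown on vehicle, scramble siRNA cells on 915, and scramble siRNA cells on vehicle. The siRNA dose was typically 25 nM, 915 was given at 10 µM for 24 hours, and the vehicle was DMSO for the same time. All rat cells were transfected and were kept in medium with insulin, transferrin and selenium. The mouse libraries came from left ventricle of WT mice after transverse aortic constriction (TAC), a narrowing of the aorta that makes the left ventricle pump against higher pressure, or after a sham operation. The agonist 332 (by IP injection) or vehicle was given over the 6 weeks that followed. There were 5 TAC hearts on 332, 5 TAC hearts on vehicle, 5 sham hearts on 332 and 3 sham hearts on vehicle. The labels give no mouse age, and nothing in them says whether rat libraries of a group came from separate isolations, so rat p-values measure the spread between these libraries, which may be technical.

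Library totals lay between 12013379 and 18315341 counts for the rat cells, and between 11375917 and 16599930 counts for the mouse hearts. Both targeted genes were low in every knockdown library: Esrra lay between 12.7 and 21.9 CPM, counts scaled to library size, in the 6 knockdown libraries and between 170 and 229 CPM in the 6 scramble libraries, and Esrrg between 16.1 and 25.1 CPM against 130 to 302 CPM. Cardiomyocyte markers were present in every library, and no marker of the list of 6 was at 0 in any group. Replicates 4 and 5 of the mouse groups carried other lane labels than replicates 1 to 3, here called the second and the first sequencing block, and all sham vehicle hearts were in the first block. The blocks differed in more than the lane label. Summed adipocyte markers were 10.9 to 16.8 CPM in all second-block hearts and at most 0.367 CPM in all first-block hearts. The part of this difference in values compared between blocks was not tested.

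A regulatory sequence is known for Txnip, the only one of the 8 genes that fell with 915 in both kinds of rat cells. The mouse Txnip promoter is shown because it holds the paired E-box through which glucose-sensing factors are known to act on this gene. The sequence is the 250 bases before the RefSeq start on the plus strand, chr3:96557707-96557956 in build GRCm38.p6, with the paired E-box in capitals.
Txnip promoter: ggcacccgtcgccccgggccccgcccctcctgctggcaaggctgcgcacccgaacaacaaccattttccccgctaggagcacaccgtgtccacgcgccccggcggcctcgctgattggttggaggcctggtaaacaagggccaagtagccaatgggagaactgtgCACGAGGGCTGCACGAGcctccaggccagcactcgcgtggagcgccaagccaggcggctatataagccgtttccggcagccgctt

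The paired E-box, searched on both strands as 2 copies of CACGNG that are 5 bases apart, lay 85 to 69 bases before the start. It was found in 15 of 32851 mouse promoter windows of 300 bases (0.0457%), and among the 6 member genes with a RefSeq window only in Txnip. The hypoxia core ACGTG, present in 16.6% of windows, was found before Slc2a1 and Hk2. The E-box CACGTG, which contains that core, was in 6.02% of windows, and the ERR element TNAAGGTCA in 1.14%. Neither was in a member window. The CCAAT box was in 33.8% of windows, among them those of Txnip, Slc2a8 and Hk2. These are matches of letters in mouse, and no binding was measured.

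Levels can be set beside each other only per length, here as the deposited FPKM in rat. In scramble cells on 915 the order was Txnip at 160 ± 12.8, Slc2a1 at 122 ± 3.86, Hk1 at 116 ± 2.28, Hk2 at 35.6 ± 2.12 and Slc2a4 at 31.9 ± 2.69 FPKM (SD, n = 3). In scramble cells on vehicle it was Txnip at 277 ± 7.12, Hk1 at 110 ± 5.04, Slc2a1 at 56.4 ± 2.81, Hk2 at 14.95 ± 0.244 and Slc2a4 at 14.1 ± 0.953 FPKM (SD, n = 3). The ranges of neighbouring genes in this order were apart except for Slc2a1 and Hk1 with 915 and for Hk2 and Slc2a4 in both scramble groups.

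In knockdown cells on 915, Slc2a1 at 108 ± 2.38 FPKM stood above Hk1 at 67.8 ± 3.16 FPKM, with ranges apart. In knockdown cells on vehicle, Hk1 at 77.1 ± 0.884 FPKM stood above Slc2a1 at 51.6 ± 1.82 FPKM (SD, n = 3 each). Slc2a4 was sixth of the 8 in knockdown cells on vehicle, at 6.25 ± 0.787 FPKM, below Slc2a8, which encodes the intracellular transporter GLUT8, at 8.75 ± 0.559 FPKM. Slc2a12, which encodes GLUT12, and Slc2a3, which encodes GLUT3 of neurons, were the lowest pair in all 4 rat groups, with Slc2a12 between 1.01 and 1.51 FPKM.

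In mouse left ventricle the order differed, with Slc2a4 far above Slc2a1. In sham hearts on vehicle Txnip averaged 83.9 ± 30.4, Hk2 53.1 ± 3.22, Slc2a4 29.8 ± 2.45, Hk1 12.3 ± 1.58, Slc2a8 3.70 ± 1.92 and Slc2a1 1.74 ± 0.0688 TPM, a level per transcript length (SD, n = 3), with all of these ranges apart. The place of Hk2 rests on a noncoding transcript of 594 bases, which took only 9.81% to 11.4% of its reads there. Counting coding transcripts of at least 1000 bases, Slc2a4 at 19.9 ± 1.47 TPM stood above Hk2 at 14.0 ± 1.102 TPM and Hk1 at 11 ± 0.713 TPM. In TAC hearts the ranges of Hk2, Slc2a4 and Hk1 overlapped on that measure, on 332 and on vehicle.

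The effect of 915 was read in knockdown cells and in scramble cells, which asks what the agonist does to these genes and whether it needs the 2 receptors. In both, the 2 main transporters and Hk2 rose and Txnip fell. Slc2a1 had 283, 274 and 282 CPM in knockdown cells on 915, against 140, 130 and 135 CPM in knockdown cells on vehicle. In scramble cells it had 310, 328 and 315 CPM on 915, against 157, 143 and 143 CPM on vehicle. All libraries on 915 lay above all on vehicle, and the log2 fold change was 1.05 (SE 0.05) in knockdown cells and 1.1 (SE 0.05) in scramble cells (adjusted p = 5.74e-14 and 1.07e-14, edgeR).

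Slc2a4 had 31.4, 30.3 and 32.4 CPM in knockdown cells on 915, against 18.1, 14.6 and 14.7 CPM on vehicle. In scramble cells it had 73.0, 81.4 and 86.1 CPM on 915, against 38.7, 33.97 and 34.4 CPM on vehicle. The knockdown cells on 915 thus stayed below the scramble cells on vehicle, while within each siRNA the 915 libraries were all above the vehicle libraries. The log2 fold change was 0.99 (SE 0.09) in knockdown cells and 1.17 (SE 0.08) in scramble cells (adjusted p = 8.54e-09 and 4.36e-11).

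Hk2, which encodes the insulin-regulated hexokinase of adult muscle, had 96.4, 99.7 and 101 CPM in knockdown cells on 915, against 79.9, 78.8 and 74.8 CPM on vehicle. In scramble cells it had 190, 185 and 207 CPM on 915, against 81.04, 82.3 and 82.7 CPM on vehicle. The rise was 1.27-fold in knockdown cells (log2 0.35, SE 0.05, adjusted p = 1.7e-05) and 2.36-fold in scramble cells (log2 1.24, SE 0.05, adjusted p = 5.83e-15). All 915 libraries lay above the vehicle libraries of their siRNA, and the scramble libraries on 915 lay far above all the others.

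Hk1, which encodes the widely expressed hexokinase, had 179, 176 and 191 CPM in knockdown cells on 915, against 211, 206 and 208 CPM on vehicle. In scramble cells it had 309, 311 and 319 CPM on 915, against 313, 282 and 296 CPM on vehicle. It fell in knockdown cells (log2 −0.20, SE 0.05, adjusted p = 0.00267), where the groups did not overlap. In scramble cells the groups overlapped and the log2 difference was 0.07 (95% interval −0.02 to 0.17, adjusted p = 0.229).

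Txnip had 369, 330 and 362 CPM in knockdown cells on 915, against 524, 532 and 537 CPM on vehicle. In scramble cells it had 433, 482 and 413 CPM on 915, against 801, 755 and 762.2 CPM on vehicle. Every 915 library lay below every vehicle library of its siRNA, with a log2 fold change of −0.59 (SE 0.06) in knockdown cells and −0.80 (SE 0.06) in scramble cells (adjusted p = 8.54e-09 and 1.76e-11).

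**Figure D1:**
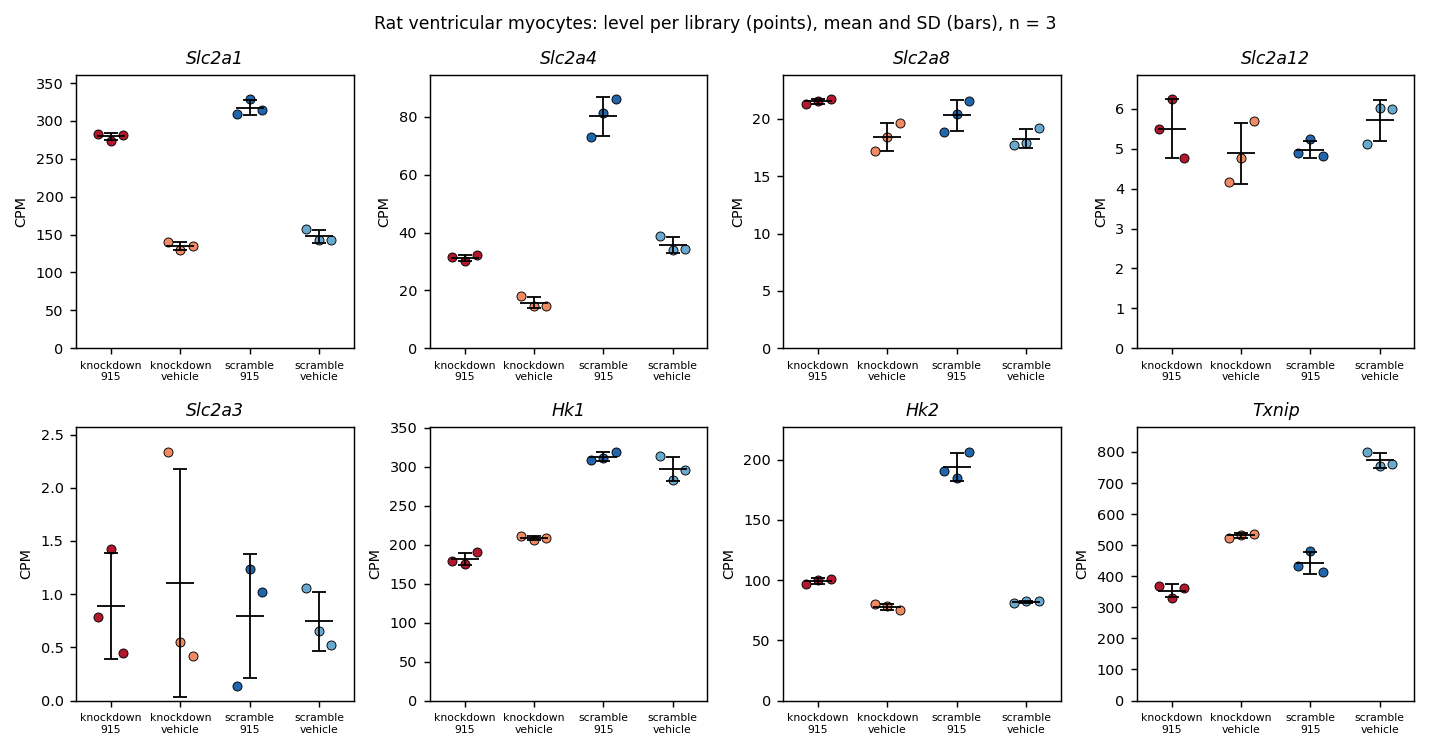
Level of each gene in CPM on the y axis in the 12 rat libraries (points, 3 a group), with the group mean and SD as bars. Slc2a1 on 915 sat between 274 and 328 CPM, above all vehicle libraries at 157 CPM or less, whereas Hk2 reached 185 CPM or more in the scramble libraries on 915 alone.

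The remaining transporters did not pass the test in either siRNA. Slc2a8 differed with 915 by 0.23 on the log2 scale in knockdown cells (95% interval 0.04 to 0.41, adjusted p = 0.0732) and by 0.16 in scramble cells (−0.03 to 0.35, adjusted p = 0.208). Slc2a12 differed by 0.17 (−0.21 to 0.55) in knockdown cells and by −0.20 (−0.58 to 0.18) in scramble cells. Slc2a3 had 2 to 42 reads a library, too few for a direction. In the rat annotation its span overlaps those of Gdf3, Dppa3 and Nanog, and whether this affects its counts was not tested.

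Counted over the list, 5 of 8 genes passed for 915 in knockdown cells, 3 higher and 2 lower, where 35.7% of all tested genes passed (18.1% higher and 17.6% lower). In scramble cells 4 of 8 passed, 3 higher and 1 lower, where 42.2% of all tested genes passed (21.5% higher and 20.6% lower). With 8 genes these shares are close to the background, and the number of calls is no result about the list. All 8 genes passed the filter on low counts in both species.

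The knockdown itself was read on 915 and on vehicle. Slc2a4 was lowered most among the 8. From the values above, Slc2a4 in knockdown cells was 0.391-fold the scramble level on 915 (log2 −1.35, SE 0.09, adjusted p = 3.27e-12) and 0.443-fold on vehicle (log2 −1.18, SE 0.09, adjusted p = 3.48e-10). Hk1 fell by 0.78 (SE 0.05) on 915 and by 0.51 (SE 0.05) on vehicle on the log2 scale. Txnip fell by 0.32 (SE 0.06) on 915 and by 0.54 (SE 0.05) on vehicle, so Txnip was lower with the knockdown and lower with 915.

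Hk2 and Slc2a1 passed the test on 915 and not on vehicle, with a large gap between the 2 values for Hk2 and a small one for Slc2a1. Hk2 was lower in knockdown cells on 915 (log2 −0.97, SE 0.05, adjusted p = 2.54e-13), and on vehicle the log2 difference was −0.08 (95% interval −0.18 to 0.03, adjusted p = 0.383). Slc2a1 was slightly lower on 915 (log2 −0.18, SE 0.05, adjusted p = 0.00467), and on vehicle the difference was −0.13 (−0.23 to −0.03, adjusted p = 0.0677). Of the 8 genes 5 passed on 915, all lower, against a background of 33.9% either way (16.2% higher and 17.7% lower). On vehicle 3 passed, all lower, against 20.4% either way (7.75% higher and 12.7% lower). The comparisons of the knockdown and of 915 share libraries, so their values are not independent.

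The difference between the 915 effects, knockdown minus scramble, tests directly whether the response differs with the knockdown. It passed for Hk2 at −0.89 (SE 0.08, 95% interval −1.04 to −0.74, adjusted p = 7.22e-08) and for Hk1 at −0.27 (SE 0.07, adjusted p = 0.0262), where 3.73% of all tested genes passed (1.74% higher and 1.99% lower). The Hk1 call was lost when any one of 7 libraries was left out: scramble vehicle replicates 2 and 3, scramble 915 replicate 3, knockdown vehicle replicates 1, 2 and 3, or knockdown 915 replicate 2 (adjusted p up to 0.0884). The difference was −0.05 for Slc2a1 (−0.19 to 0.09, adjusted p = 0.776), −0.18 for Slc2a4 (−0.42 to 0.07, adjusted p = 0.519) and 0.22 for Txnip (0.06 to 0.37, adjusted p = 0.135). In the knockdown libraries Esrra and Esrrg were low but not 0.

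**Figure D2:**
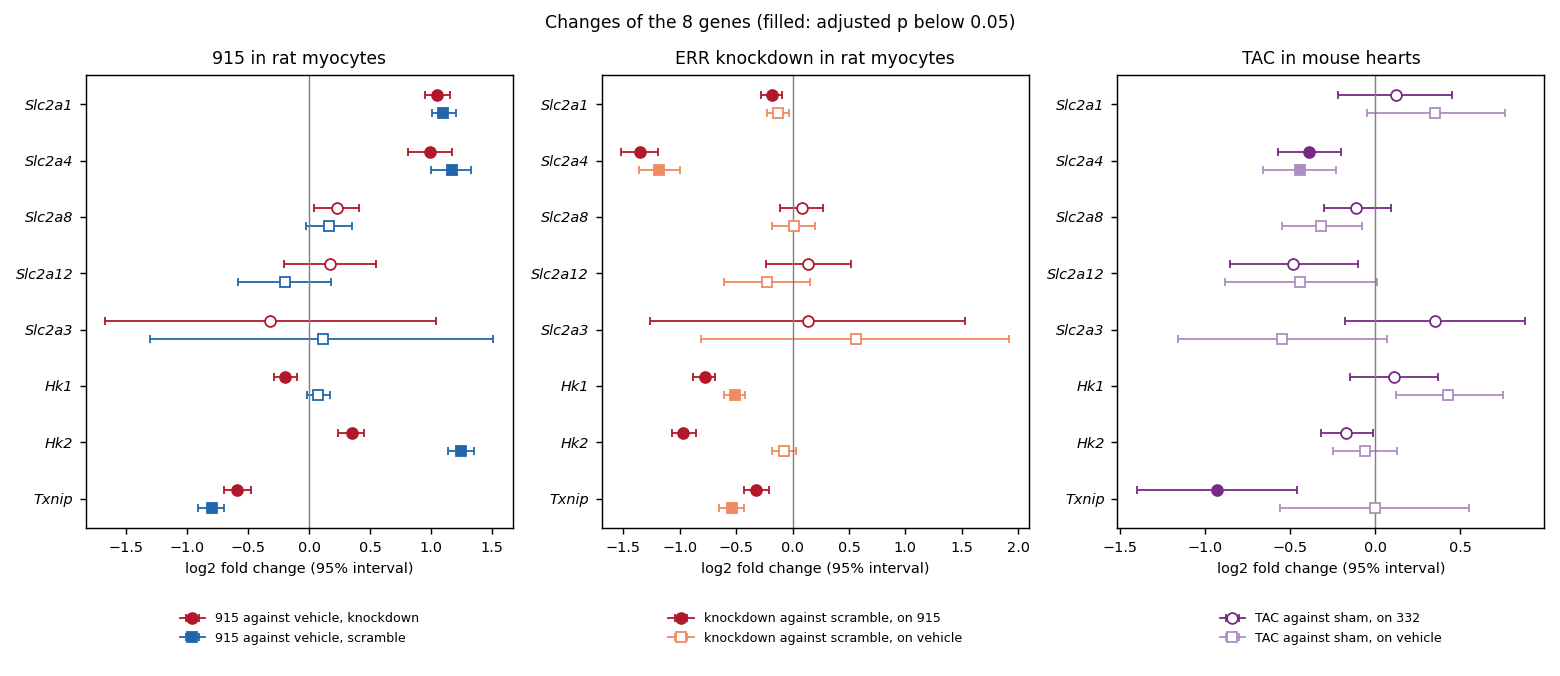
Log2 fold change of each gene on the x axis with its 95% interval, for 915 against vehicle (left), knockdown against scramble (middle) and TAC against sham (right), with filled symbols for an adjusted p below 0.05. The 2 points of Slc2a1 under 915 nearly coincide at 1.05 and 1.1, whereas those of Hk2 stand apart at 0.35 and 1.24.

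The authors' deposited table gave nearly the same values for the rat genes, for example a log2 fold change of 1.23 for Hk2 with 915 in scramble cells and 0.35 in knockdown cells. In the authors' deposited table Slc2a4 stood at −1.17 for the knockdown on vehicle and Slc2a1 at −0.13 with an adjusted p of 0.127.

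The balance between paired isoforms moved with different factors. The per-length ratio of Slc2a1 to Slc2a4 was 8.42 to 8.74 in knockdown cells on 915 and 7.46 to 8.85 in knockdown cells on vehicle. It was 3.53 to 4.10 in scramble cells on 915 and 3.92 to 4.07 in scramble cells on vehicle. The ratio thus separated by siRNA, while the 915 and vehicle ranges overlapped within each siRNA. The per-length ratio of Hk1 to Hk2 was 3.57 to 3.83 in knockdown cells on 915 and 5.30 to 5.64 on vehicle. In scramble cells it was 3.13 to 3.40 on 915 and 6.94 to 7.83 on vehicle, so all 4 groups were apart from each other. These ratios combine members and carry no test.

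**Figure D3:**
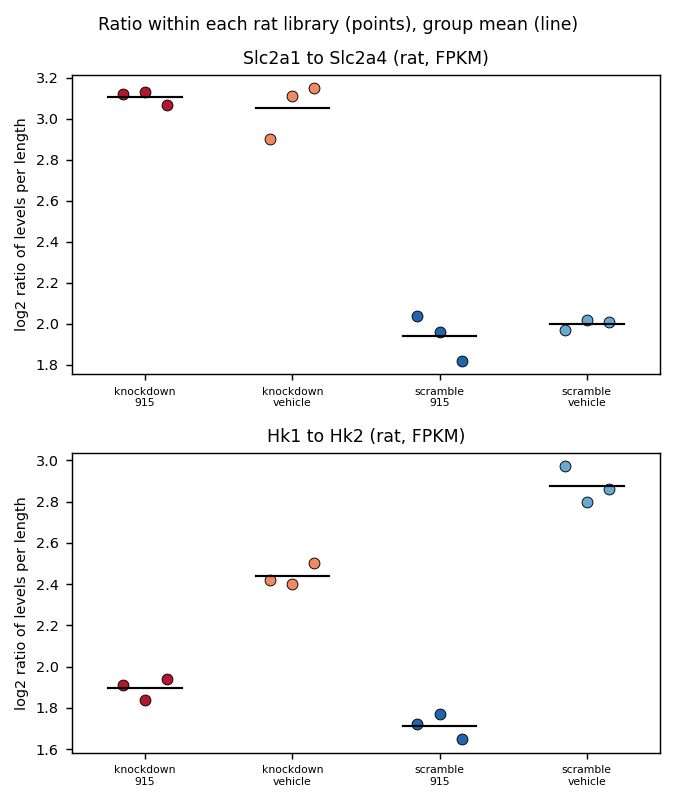
Log2 ratio of FPKM within each rat library on the y axis (points, 3 a group, with the group mean as a line) for Slc2a1 to Slc2a4 (top) and Hk1 to Hk2 (bottom). The upper ratio lies between 2.90 and 3.15 in the 6 knockdown libraries and between 1.82 and 2.04 in the 6 scramble libraries, and the lower ratio is lowest in scramble cells on 915.

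Markers of cell types moved with these groups. The summed level of 6 cardiomyocyte markers was 6860 to 8760 CPM in knockdown cells on 915 and 8540 to 8930 CPM in knockdown cells on vehicle, against 17200 to 18200 CPM in scramble cells on 915 and 12500 to 13800 CPM in scramble cells on vehicle. With the knockdown 6 of 6 fell on 915 and 4 of 6 on vehicle, where 17.7% and 12.7% of all tested genes fell. With 915 in scramble cells 3 rose and 1 fell, where 21.5% of all tested genes rose and 20.6% fell. The summed smooth muscle and pericyte markers were 2490 to 2970 CPM in knockdown cells on 915, 5160 to 5810 CPM in knockdown cells on vehicle, 1960 to 2380 CPM in scramble cells on 915 and 5040 to 5330 CPM in scramble cells on vehicle. Summed over 9 fibroblast markers, values were 8850 to 11200, 13100 to 14600, 7590 to 8350 and 13700 to 14800 CPM in the same groups. With 915 in scramble cells 6 of these 9 fell and 1 rose, beside 20.6% and 21.5% of all tested genes. The part of these shifts in the results for Slc2a4, Hk1 and the other genes was not tested, and in bulk RNA fewer cells of a type and less RNA per cell cannot be told apart.

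Among 81 further genes of glucose uptake in 7 lists, 77 were tested in rat. With 915 in knockdown cells 33 of 77 passed (17 higher and 16 lower), against 35.7% of all genes, with a median log2 change of −0.04 beside 0.00 over all genes. In scramble cells 40 of 77 passed (25 higher and 15 lower), against 42.2%, with a median of 0.04 beside 0.01. Of 18 genes of GLUT4 vesicle traffic, 3 rose and 6 fell in knockdown cells, where 18.1% of all genes rose and 17.6% fell, and 3 rose and 7 fell in scramble cells, against 21.5% and 20.6%. Their median log2 change was −0.06 in both. Tbc1d4, the Rab regulator AS160 that holds GLUT4 vesicles back until insulin acts, fell by 0.67 (SE 0.08) in knockdown cells and by 0.59 (SE 0.07) in scramble cells. Sort1, the sorting receptor sortilin that helps form these vesicles, fell by 0.30 (SE 0.05) and by 0.44 (SE 0.05). The motor gene Myo1c fell by 0.46 and by 0.33 (SE 0.05 each).

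In the TXNIP axis, the relatives, partners and regulators of Txnip, 6 of 12 rose and 1 fell in knockdown cells (background 18.1% and 17.6%), with a median log2 change of 0.15 beside 0.00 over all genes. In scramble cells 8 of 12 rose and 0 fell (background 21.5% and 20.6%), with a median of 0.31 beside 0.01. Mlx, the partner of MondoA and ChREBP on DNA, rose by 0.40 in knockdown cells and by 0.45 in scramble cells (SE 0.06 each). Txnrd1, the cytosolic thioredoxin reductase, rose by 0.72 (SE 0.05) in scramble cells, and its 915 effect was 0.52 lower in knockdown cells (difference −0.52, SE 0.07, adjusted p = 6.51e-05). Arrdc4, a relative of Txnip that also limits glucose uptake, had a difference of −0.64 (SE 0.14, adjusted p = 0.00851). Txnip itself is not counted in this list.

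Of the AMPK and insulin signalling genes 3 of 18 rose and 6 fell in knockdown cells (background 18.1% and 17.6%, list median −0.14), and 6 rose and 7 fell in scramble cells (background 21.5% and 20.6%, list median 0.06). Prkag2, a regulatory subunit of AMPK, fell by 0.51 and by 0.77 (SE 0.07 each). Among transcription factors of glucose uptake 3 of 9 rose and 2 fell in knockdown cells (list median 0.12), and 4 rose and 0 fell in scramble cells (list median 0.32), against the same backgrounds. Klf15, a factor of the Slc2a4 promoter in muscle, rose by 0.78 in knockdown cells and by 0.72 in scramble cells, and Myc by 0.68 and by 0.92 (SE 0.08 each). Past glucose 6-phosphate, Gfpt2 of the hexosamine branch rose by 1.12 and by 1.06 (SE 0.08 each). Pgm1, which links glucose 6-phosphate to glycogen, had a 915 effect 0.54 lower in knockdown cells (difference −0.54, SE 0.09, adjusted p = 0.000696). In all 7 of 77 genes passed for the difference, all lower, against a background of 3.73%: Irs2, Prkaa2, Txnrd1, Arrdc4, Esrrg, Pgm1 and Pfkp. Of these, Esrrg is itself a target of the siRNA.

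With the knockdown 40 of 77 passed on 915 (12 higher and 28 lower, background 33.9%) and 29 of 77 on vehicle (6 higher and 23 lower, background 20.4%). Esrra and Esrrg, the siRNA targets, are among those that fell. Pfkfb2, which makes an activator of heart phosphofructokinase, fell by 0.93 (SE 0.08) on 915 and by 0.63 (SE 0.08) on vehicle. Gpi, the isomerase that follows hexokinase, fell by 0.45 and by 0.41 (SE 0.05 each). Hk3, a hexokinase of blood cells, was higher by 1.38 (SE 0.42) and by 1.41 (SE 0.41) at a mean of only 2.20 CPM. The leukocyte markers moved with it: their sum was 75.6 to 99.8 CPM in knockdown cells on 915 and 64.1 to 65.9 CPM in knockdown cells on vehicle, against 47.0 to 49.1 CPM in scramble cells on 915 and 38.7 to 41.3 CPM in scramble cells on vehicle. Their part in the Hk3 value was not tested.

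**Figure D4:**
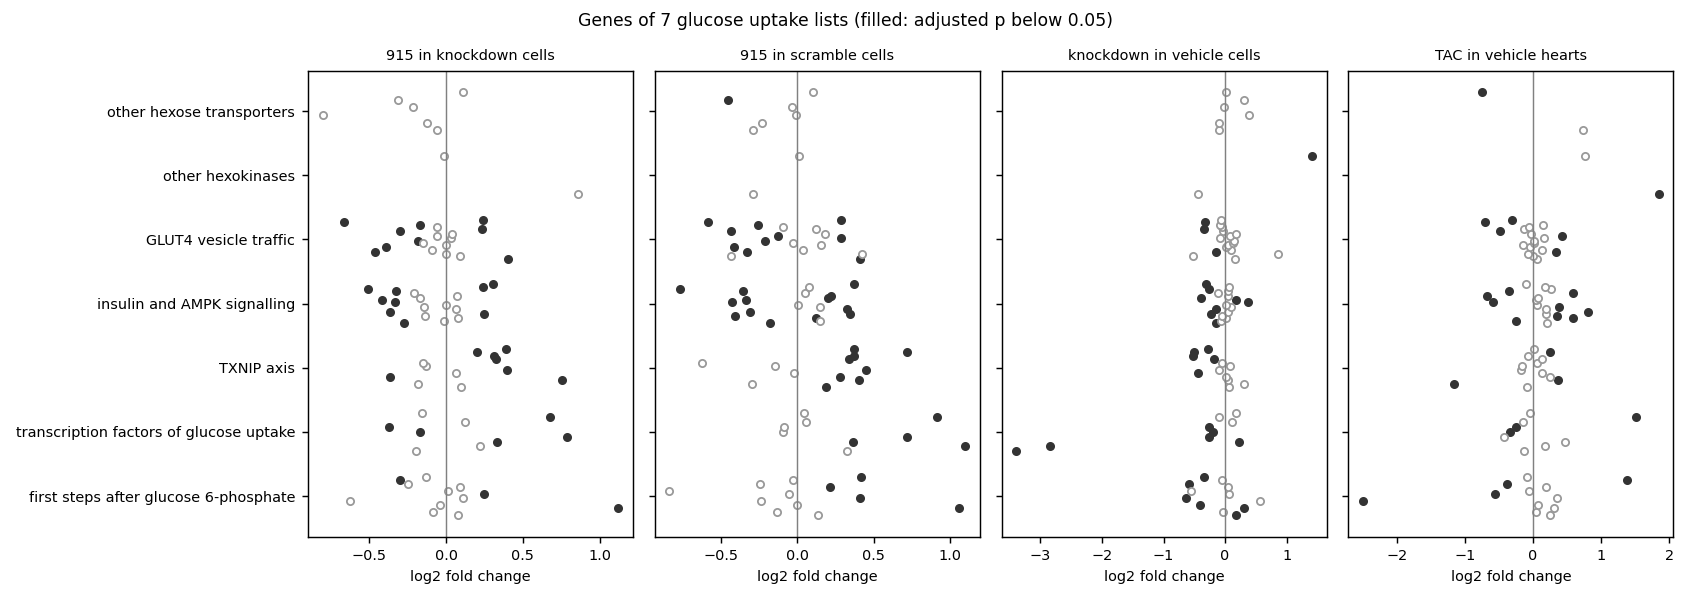
Log2 fold change on the x axis of the tested genes of 7 glucose uptake lists (1 point a gene, filled for an adjusted p below 0.05) for 915 in knockdown and in scramble cells, the knockdown on vehicle, and TAC on vehicle. Points of the TXNIP axis lie mostly to the right for 915 in scramble cells, where 8 of 12 passed as higher beside 21.5% of all genes, and the lowest points for the knockdown are Esrra at −3.39 and Esrrg at −2.85.

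Across the 12 rat libraries, the genes whose log2 CPM ran most alongside each member were searched among 11179 genes. Slc2a1 ran closest with the metallothioneins Mt1 (r = 0.996) and Mt2A (r = 0.996) and with Rpl4 (r = 0.994). Slc2a4 ran closest with Lrrc2 (r = 0.992), Vegfa (r = 0.991) and Sphk1 (r = 0.990). For Hk2 these genes were Nppb (r = 0.987), Gstk1 (r = 0.984) and Rac2 (r = 0.980). For Txnip they were Hcn4 (r = 0.992), Cpt1a (r = 0.986) and RGD1307929 (r = 0.986). The 12 points share 4 group means, so these values describe the group pattern.

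In mouse hearts, 2 TAC hearts stood apart in these genes. Each had the highest Hk1, Hk2 and Slc2a1 and the lowest Slc2a4, Slc2a12 and Txnip CPM of its group: TAC replicate 4 on 332 and TAC replicate 5 on vehicle. Both are of the second sequencing block. Their summed fibroblast markers were 2470 and 1830 CPM, against 858 to 1350 CPM in the other TAC hearts on 332 and 1190 to 2110 CPM in the other TAC hearts on vehicle. TAC results are given with and without these 2 hearts where that moves a call. The 2 hearts were picked by the values of these same genes, after seeing the data. Leaving them out narrows the spread by that choice, so a lower adjusted p without them is no support for a call.

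Slc2a4 was lower after TAC on the scale of the main test, CPM with TMM-scaled library sizes. Its level was 245, 256, 215, 169 and 258 CPM in TAC hearts on 332, against 301, 280, 316, 299 and 295 CPM in sham hearts on 332. On vehicle it was 245, 214, 202, 223 and 174 CPM in TAC hearts, against 306, 285 and 297 CPM in sham hearts. On this scale all 10 TAC hearts lay below all 8 sham hearts. The log2 fold change was −0.39 (SE 0.09, adjusted p = 0.00485) on 332 and −0.44 (SE 0.11, adjusted p = 0.00571) on vehicle, and without the 2 hearts −0.28 (adjusted p = 0.00392) and −0.43 (adjusted p = 0.000182). In the first block alone they were −0.31 (adjusted p = 0.0253) on 332 and −0.42 (adjusted p = 0.00224) on vehicle. In the second block alone the value on 332 was −0.47 with an adjusted p of 0.306.

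On the deposited TPM, summed per gene, Slc2a4 did not pass the test in either arm. It averaged 35.6 ± 4.63 TPM in TAC hearts and 33.03 ± 6.78 TPM in sham hearts on 332 (SD, n = 5 each), and 30.2 ± 8.63 TPM in TAC hearts (n = 5) and 29.8 ± 2.45 TPM in sham hearts (n = 3) on vehicle, and the groups overlapped. With limma on log2(TPM + 0.1) the difference after TAC was 0.12 (SE 0.13, adjusted p = 0.482) on 332 and −0.19 (SE 0.16, adjusted p = 0.447) on vehicle. On that scale the median of all tested genes was itself 0.35 higher on 332 and 0.24 higher on vehicle, so relative to it Slc2a4 stood at −0.23 and at −0.43. The calls of the whole table were then 4832 higher and 221 lower on 332 and 1705 higher and 238 lower on vehicle, beside 1653 higher and 1696 lower and 1900 higher and 1803 lower from the counts, where the median was 0.00 and −0.01. The Slc2a4 call after TAC thus depends on the scaling, and the TAC values that follow are from counts unless TPM is named.

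Txnip was lower after TAC in hearts on 332. It was 387, 340, 479, 208 and 246 CPM in TAC hearts on 332, against 439, 784, 454, 651 and 704 CPM in sham hearts on 332. The groups overlapped through TAC replicate 3. The log2 fold change was −0.93 (SE 0.24, adjusted p = 0.0131). In the first block alone it was −0.47 (adjusted p = 0.354), and without the 2 hearts −0.78 (adjusted p = 0.0579), whereas in the second block alone it was −1.57 (adjusted p = 0.00884). On the TPM scale it was −0.61 (SE 0.28, adjusted p = 0.1), or −0.96 relative to the median of all genes. On vehicle Txnip was 463, 413, 577, 374 and 294 CPM in TAC hearts, against 366, 408 and 611 CPM in sham hearts. These groups overlapped (95% interval −0.56 to 0.55). All sham hearts on vehicle were in the first block, so the second-block value on 332 has no counterpart on vehicle. The second-block TAC hearts on vehicle were the lowest of their group, at 374 and 294 CPM.

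Hk1 was 151, 174, 187, 170 and 277 CPM in TAC hearts on vehicle, against 141, 129 and 124 CPM in sham hearts on vehicle. The groups did not overlap, and the log2 difference was 0.43 (SE 0.16, adjusted p = 0.058). It passed in the first block alone (0.39, adjusted p = 0.00675), which also lacks the 2 hearts, and without the block term (0.55, adjusted p = 0.0281). It also passed with no low-count filter (0.44, adjusted p = 3.46e-05) and by DESeq2 (0.43, adjusted p = 0.0237). Without the 2 hearts it was 0.37 (adjusted p = 0.00219, edgeR), but they were picked partly by their Hk1, so this value is no support. The Hk1 difference did not pass with RLE size factors (0.43, adjusted p = 0.0627), the stricter filter (0.44, adjusted p = 0.0527), the replicate block (0.43, adjusted p = 0.105), only the groups compared (0.38, adjusted p = 0.168) or TPM (0.52, adjusted p = 0.204). With 1 library left out the adjusted p was 0.0257 to 0.188. The adjusted p of the fit with no low-count filter calls for caution. For Txnip after TAC on 332 that fit gave 7.86e-30, beside 0.0131 in the main edgeR fit, at −0.93 in both. On 332 Hk1 was 174, 155, 160, 243 and 151 CPM in TAC hearts, against 152, 178, 145, 173 and 165 CPM in sham hearts, with overlap and a difference of 0.11 (95% interval −0.15 to 0.37, adjusted p = 0.604). On the TPM scale the Hk1 difference on 332 was 0.62 (SE 0.23, adjusted p = 0.0417), or 0.27 relative to the median of all genes.

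Slc2a1 differed after TAC by 0.12 on 332 (95% interval −0.22 to 0.45) and by 0.35 on vehicle (−0.05 to 0.76, adjusted p = 0.227), and it had only 109 to 357 reads a heart. On vehicle it passed with no low-count filter (0.36, adjusted p = 0.0406) and on the TPM scale (1.13, SE 0.32, adjusted p = 0.0276, or 0.89 relative to the median of all genes). Its TPM was 2.97 to 8.82 in TAC hearts and 1.66 to 1.79 in sham hearts on vehicle, groups that did not overlap, and 1.78 to 5.11 in TAC hearts and 1.76 to 2.54 in sham hearts on 332. From coding transcripts of at least 1000 bases it was 0.204 to 1.27 TPM in TAC hearts and 0.183 to 0.254 TPM in sham hearts on vehicle, with overlap. A coding transcript of only 633 bases, whose reads weigh more per length, held 0% to 8.46% of Slc2a1 reads in TAC hearts on vehicle. In sham hearts on vehicle it held 0%. On 332 it held 0% to 7.01% in TAC hearts and 0% to 8.58% in sham hearts. Its part in the TPM difference was not tested.

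Of the other members, Slc2a8 differed by −0.11 on 332 (−0.30 to 0.09) and by −0.32 on vehicle (−0.55 to −0.08, adjusted p = 0.0574, and with −0.35 an adjusted p of 0.0431 without the 2 hearts). Slc2a12 differed by −0.48 on 332 (−0.85 to −0.10, adjusted p = 0.0778) and by −0.44 on vehicle (−0.88 to 0.01, adjusted p = 0.172). Hk2 differed by −0.17 on 332 (−0.32 to −0.01, adjusted p = 0.142) and by −0.06 on vehicle (−0.25 to 0.13). Slc2a3 had 11 to 27 reads a heart. In all, 2 of 8 genes passed for TAC on 332, both lower, against a background of 23.8% (11.8% higher and 12.1% lower). On vehicle 1 of 8 passed, as lower, against 26.4% (13.5% higher and 12.8% lower).

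**Figure D5:**
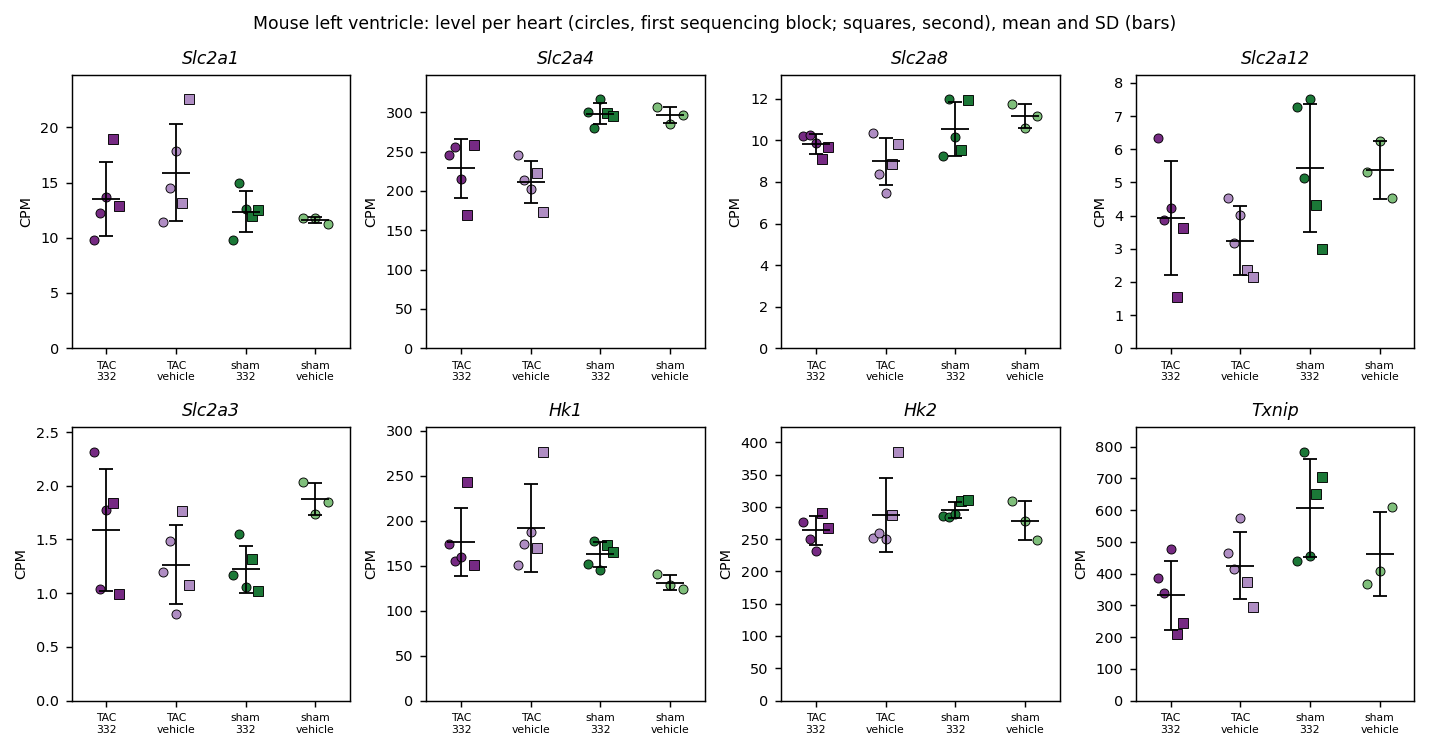
Level of each gene in CPM on the y axis in the 18 mouse hearts (circles for the first and squares for the second sequencing block), with the group mean and SD as bars. Slc2a4 lies at 258 CPM or less in the TAC hearts and at 280 CPM or more in the sham hearts, whereas Hk1 has 1 heart far above the rest in each TAC group, at 243 and 277 CPM.

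In the main edgeR fit and by DESeq2, the agonist 332 moved none of the 8 genes past the threshold. This held in TAC hearts, in sham hearts and in the difference between them. With no low-count filter Txnip passed in each of these comparisons. At an unadjusted p below 0.05 the counts were 0 in TAC hearts, 0 in sham hearts and 2 for the difference. Few genes of the whole table passed either: 0.427% in TAC hearts (0.135% higher and 0.292% lower), 0.00712% in sham hearts (0.00712% higher and 0% lower) and 0.0641% for the difference (0.0214% higher and 0.0427% lower). In TAC hearts the intervals were narrow for Slc2a4 (0.11, −0.07 to 0.30) and Hk2 (−0.11, −0.27 to 0.04) and wide for Txnip (−0.37, −0.84 to 0.10). In sham hearts Txnip differed by 0.56 (−0.02 to 1.14), and the difference of the Txnip effects, TAC minus sham, was −0.93 (−1.68 to −0.18, unadjusted p = 0.0301, adjusted p = 0.42). The other gene with an unadjusted p below 0.05 was Slc2a3, at 0.90 (unadjusted p = 0.0413, adjusted p = 0.473, edgeR).

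The per-length ratio of Slc2a1 to Slc2a4 in mouse was 0.078 to 0.228 in TAC hearts on vehicle and 0.054 to 0.065 in sham hearts on vehicle. On 332 it was 0.050 to 0.168 in TAC hearts and 0.061 to 0.083 in sham hearts, with overlap. From coding transcripts of at least 1000 bases it was 0.011 to 0.048 in TAC hearts and 0.009 to 0.013 in sham hearts on vehicle, which overlapped, and 0.017 to 0.030 in TAC hearts and 0.008 to 0.021 in sham hearts on 332. Even the highest of these lay far below the rat ratios, which come from another species, age and quantification. Of the mouse Slc2a1 reads, 60.3% to 80.2% were assigned to a transcript annotated for nonsense-mediated decay, so the level of coding Slc2a1 depends on that assignment. The split of Hk1 reads between its coding transcripts was unstable, with Hk1-201 holding 6.11% to 84.7% among sham hearts on 332, whereas Slc2a4-201 held 92.0% to 95.1% of Slc2a4 reads in all groups.

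Cell type markers moved with TAC. The summed cardiomyocyte markers were 35400 to 52600 CPM in TAC hearts on 332 and 35600 to 45800 CPM in TAC hearts on vehicle, against 47700 to 61600 CPM in sham hearts on 332 and 46000 to 48300 CPM in sham hearts on vehicle. Of 6 such markers 5 fell on 332 and 4 on vehicle, where 12.1% and 12.8% of all tested genes fell. Their median log2 change was −0.41 in both, close to the −0.39 and −0.44 of Slc2a4. The summed fibroblast markers were 858 to 2470 CPM in TAC hearts on 332 and 1190 to 2110 CPM in TAC hearts on vehicle. In sham hearts they were 561 to 643 CPM on 332 and 544 to 634 CPM on vehicle. Of these 9 markers 6 rose on 332 and 7 on vehicle, where 11.8% and 13.5% of all tested genes rose. The part of these shifts in the Slc2a4 and Hk1 values was not tested.

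Among the 81 further genes, 73 were tested in mouse. After TAC 22 of 73 passed on 332 (8 higher and 14 lower, background 23.8%) and 26 of 73 on vehicle (12 higher and 14 lower, background 26.4%). Tbc1d4 fell by 0.61 (SE 0.09) on 332 and by 0.71 (SE 0.11) on vehicle, and Sort1 by 0.54 (SE 0.10) and by 0.48 (SE 0.12). Rhoq, the GTPase TC10 of GLUT4 traffic, rose by 0.39 (SE 0.06) and by 0.42 (SE 0.08).

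Downstream of hexokinase, Pfkfb1 fell by 1.66 (SE 0.27) on 332 and by 2.50 (SE 0.32) on vehicle, Pfkm, the muscle phosphofructokinase, fell by 0.35 (SE 0.08) and by 0.38 (SE 0.09), and its platelet-type relative Pfkp rose by 1.13 (SE 0.24) and by 1.38 (SE 0.30). Arrdc2, a relative of Txnip, fell by 1.08 (SE 0.26) and by 1.16 (SE 0.30). Klf15 fell by 1.00 (SE 0.16) on 332 and did not pass on vehicle. Irs1, a docking protein of the insulin receptor, rose by 0.80 (SE 0.15) on vehicle and was not among the genes named on 332. Neither is shown to be particular to 1 arm, since 0 of 73 genes passed for the difference of the 332 effects. For 332 itself 0 of 73 passed in TAC hearts and 0 of 73 in sham hearts.

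Across the 18 hearts, with each sequencing block centred, Slc2a4 ran closest among 9689 genes with Hadh (r = 0.986), Ces1d (r = 0.980) and Dhrs7c (r = 0.978). Slc2a1 ran closest with Osmr (r = 0.871), Lrrfip1 (r = 0.843) and Sgcd (r = 0.837), and Hk2 with Ehbp1 (r = 0.829), Trim55 (r = 0.808) and Xiap (r = 0.794). For Txnip these genes were Lipe, the hormone-sensitive lipase (r = 0.832), Angptl4, an inhibitor of lipoprotein lipase (r = 0.816), and Cited2 (r = 0.786). None of these genes was among the 3 closest to the same member in rat.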

How the data were processed

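Poly(A) RNA-seq of 12 rat and 18 mouse libraries was read from the deposited files. For rat (rn6) the submitters' processing notes name DESeq2 1.20.0, featureCounts 1.5.0-p3, StringTie 1.3.3b and HISAT2 2.0.5. For mouse they name fastp, Salmon and DESeq2, and the build and versions are not given in the sources used here. Per the file headers the rat table holds counts, FPKM and the authors' log2 fold changes and p-values, and the mouse tables estimated counts and TPM per transcript. The authors' group means were not used.

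Mouse estimated counts of 140790 transcripts were summed to genes and rounded, since 7.43% were not whole. Genes were kept by filterByExpr (minimum count 10), leaving 15181 rat and 14047 mouse genes, and fitted with edgeR 4.0.16 in R 4.3.3 (TMM, robust quasi-likelihood F-test, Benjamini-Hochberg over all genes at 0.05), once over the 4 rat groups and once over the 4 mouse groups, there with a term for the sequencing block, which was read from lane labels. SE is the log2 fold change over the root of F, and 95% intervals are 1.96 SE. These intervals are approximate and somewhat narrower than the F-test implies. For Hk2 after TAC on 332 the interval excludes 0 at an unadjusted p of 0.051 (edgeR). CPM uses TMM-scaled library sizes. Fits were tested on simulated data.

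The members, lists and rules were chosen with earlier results of these data known. Named were all 8 members, up to 3 called genes of smallest adjusted p per list and comparison, and the 3 closest genes (mean of at least 5 CPM) to Slc2a1, Slc2a4, Hk2 and Txnip. Some are counted without being described, and 1 is not reported here. Promoters are RefSeq windows in GRCm38.p6. Alternatives were RLE size factors, no filter, a strict filter, fits of the compared groups alone, DESeq2 1.42.0, the replicate block, each library left out, no block term and each block alone. Leaving out the 2 outlying TAC hearts, limma 3.58.1 on log2 of the deposited mouse TPM plus 0.1, and the coding transcripts of 1000 bases or more were chosen after seeing the data.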

Additional observations from a re-analysis of the deposited data

Results flagged for a closer look

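Of 24 gene and group combinations of 5 hearts, 3 held a heart far from the others, where chance flags about 1 in 20. Hk1 stood at 242.5 CPM in TAC replicate 4 on 332, with the next heart at 173.7 CPM. Hk1 stood at 276.6 CPM in TAC replicate 5 on vehicle, with the next heart at 186.9 CPM. Hk2 stood at 385.5 CPM in the same heart, with the next at 287.9 CPM. Between the 2 siRNAs of the rat cells, the effect of 915 differed by test for Hk2 (difference −0.89, knockdown minus scramble) and for Hk1 (difference −0.27).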

How the results depend on the processing

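Of 1346 recomputed values of the 8 genes, 1247 kept their direction and their side of the threshold, 12 lost a call, 21 gained one and 66 changed sign. Of the last, only Slc2a4 after TAC on 332, with TPM, had been called. The cause was not tested for any of these. The calls of Slc2a1, Slc2a4, Hk2 and Txnip for 915 and those for the knockdown held under every alternative run.

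The counts of genes called depended on the setting for TAC on 332 (3349): 2208 with no block term, 1662 in the first block alone and 52 in the second, where fewer hearts were used. For 332 in TAC hearts (60) there were 671 with no filter, 183 by DESeq2, 30 with only the groups compared, 13 with no block term, 10 in the first block, 3 in the second and 39 without the 2 outlying hearts. For 332 in sham hearts (1) there were 191 with no filter, 0 with the stricter filter, 5 by DESeq2, 28 with only the groups compared, 0 with no block term and 12 in the first block. For the difference of the 332 effects (9) there were 521 with no filter, 14 with the stricter filter, 88 by DESeq2, 0 with no block term, 5 in the first block and 54 without the 2 hearts. With no filter Txnip passed for 332 in TAC hearts, in sham hearts and for the difference. Leaving out 1 library gave 259 to 677 genes for the difference of the 915 effects, 2437 to 3747 for TAC on vehicle, 22 to 94 for 332 in TAC hearts, 0 to 2 in sham hearts and 0 to 25 for the difference.

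With the deposited TPM in place of counts there were 5053 genes for TAC on 332, 1943 for TAC on vehicle (3703 from counts) and 0 for 332 in TAC hearts, in sham hearts and for the difference. After TAC on 332, Slc2a4 was then 0.12, Slc2a12 0.02, Hk2 0.05 and Slc2a3 −0.76. For 332 in TAC hearts Slc2a8 was −0.15, Hk1 0.13 and Hk2 0.17, and in sham hearts Slc2a4 was −0.04 and Slc2a8 0.50. For the difference Slc2a8 was −0.65, Slc2a12 0.09, Hk1 0.10 and Hk2 0.42.

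After TAC on vehicle, Hk2 was 0.04 with no block term, and Txnip was 0.00 with no filter, 0.02 with the replicate block, 0.07 with only the groups compared, 0.08 in the first block and 0.02 without the 2 hearts. After TAC on 332, Slc2a1 was −0.06 in the first block and −0.03 without the 2 hearts, and Hk1 −0.02 without them. For 332 in TAC hearts Slc2a3 was −0.01 in the second block. For 332 in sham hearts Slc2a1 was −0.00 with RLE factors and −0.02 with the replicate block, and Hk2 was 0.00 with the replicate block, 0.03 with only the groups compared, 0.08 with no block term and 0.04 in the first block. For the difference of the 332 effects Slc2a12 was 0.25 with no block term and 0.12 without the 2 hearts. The log2 ratio of Slc2a1 to Slc2a4 for 332 in sham hearts was 0.07 from CPM and 0.02 from long coding transcripts, and that of Hk1 to Hk2 for TAC on vehicle 0.49 and 0.43.

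Leaving out 1 library, Slc2a3 ranged over −0.33 to 0.59 for 915 in scramble cells, −0.86 to 0.86 in knockdown cells, −0.62 to 0.94 for the knockdown on vehicle, −0.41 to 0.58 for it on 915 and −0.96 to 0.75 for the difference, and Slc2a8 over −0.03 to 0.06 for the knockdown on vehicle. In mouse the ranges were −0.14 to 0.02 for Hk2 and −0.15 to 0.24 for Txnip after TAC on vehicle, −0.01 to 0.23 for Slc2a1 and −0.01 to 0.20 for Hk1 after TAC on 332, −0.23 to 0.02 for Hk1 under 332 in TAC hearts, −0.15 to 0.06 for Slc2a1 and −0.09 to 0.07 for Hk2 under 332 in sham hearts, and −0.23 to 0.13 for Slc2a12 and −0.05 to 0.18 for Slc2a4 for the difference.

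Libraries with the same replicate number showed no marked common deviation (correlations of −0.0726 to 0.0506 over 18 rat pairs and −0.385 to 0.118 over 24 mouse pairs). The −0.385 came from the second mouse block, where centred replicates 4 and 5 of a group are mirror images. Pairs of unlike number there gave 0.385, so that block cannot tell. Low correlations do not exclude a shared source. With a replicate block the counts were 6276 for 915 in scramble cells and 5292 in knockdown cells, 5031 for the knockdown on 915 and 2941 on vehicle, 3115 for TAC on 332 and 3356 on vehicle, and no call of the 8 genes changed. Depth limits Slc2a3 in both species and Slc2a12 in mouse (22 to 85 reads).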
